A study of Homo sapiens with 4 samples.

Results

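The 41 genes described here encode Polycomb proteins, DNA methyltransferases, TET enzymes, histone demethylases, histone deacetylases, ASXL proteins and H3K36 methyltransferases. They were listed by name, and all 41 were measured among the 17938 named genes of the arrays. No rule on measured values built the list, but it was chosen with earlier results of these data known. Polycomb repressive complex 2 (PRC2) methylates histone H3 at lysine 27, a mark of silenced genes, and Polycomb repressive complex 1 (PRC1) binds that mark through its CBX subunits and ubiquitinates histone H2A through its RING subunits. DNA methyltransferases add methyl groups to cytosines at CpG sites and TET enzymes oxidise them, while histone demethylases and deacetylases remove methyl and acetyl groups from histone tails. Several of these genes, such as EZH2, TET2, DNMT3A and ASXL1, are recurrently mutated in myeloid malignancies, and KDM1A is known for a role in sustaining leukemia driven by MLL fusions.

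The samples came from THP1, an AML M5 cell line whose cells carry the MLL-AF9 fusion. The comparison addressed which transcripts depend on MLL-AF9. Knockdown cells received siRNA-A (labelled siRNA3) or siRNA-B (labelled siRNA4), both directed to the fusion point, and control cells received non-targeting control siRNA-1 or control siRNA-2. All cells were transfected on days 0, 3 and 6 and harvested on day 8. The serum content was 10% up to day 6 and 0.5% afterwards in knockdown and control cells. Each of the 4 single-colour arrays held RNA pooled from 5 experiments with 1 siRNA. Each group therefore had 2 arrays, which differ in siRNA sequence and not only in culture, and the spread between the 5 experiments is not visible. The 4 arrays shared 1 slide, with the knockdown arrays at the first positions and the control arrays at the last, so treatment and position cannot be told apart. The values describe 1 cell line, and in such bulk RNA fewer cells of a type and less RNA per cell cannot be told apart.

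Probes for the 3' part of MLLT3 (AF9), which the fusion transcript shares with the wild-type transcript, gave a check of the labels. The brighter MLLT3 probe read 6.82 and 6.87 on the siRNA-A and siRNA-B arrays against 7.59 and 7.61 on the control arrays, a log2 fold change (log2FC) of -0.76 ± 0.11 (SE, limma, adjusted p = 0.0639). The array medians over all spots lay between 8.56 and 8.66, and 71.2% and 70.0% of spots were well above background on the siRNA-A and siRNA-B arrays against 74.3% on both control arrays. The median log2 intensity of the members was 9.73 and 9.81 on the knockdown arrays and 9.98 and 9.90 on the control arrays, and the part of these differences in the results was not tested. All 10 measured monocytic and myeloid markers were well above background on every array, but so were all 6 T cell markers and 4 of 5 B cell markers, so that this flag does not tell THP1 from other blood cells. Of these 10 myeloid markers 7 were below 0, with a median log2FC of -0.07. CD14, a monocyte surface receptor, was higher, at an unadjusted p under 0.005, with a log2FC of 1.05 ± 0.13 (SE, limma, adjusted p = 0.0355), and ELANE, the neutrophil elastase of immature myeloid cells, was lower at the same threshold with -0.47 ± 0.11 (SE, limma, adjusted p = 0.277). The 17 proliferation genes had a median log2FC of 0.02 and none had an unadjusted p under 0.05. Their summed intensity was 214700 with siRNA-A, 185300 with siRNA-B, 186000 with control siRNA-1 and 225300 with control siRNA-2, so the groups overlapped.

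No member passed the test. At an unadjusted p under 0.005 in limma, the first of the study's criteria, 0 of 41 members were called, against 1.33% of all genes (0.630% higher and 0.702% lower). At an unadjusted p under 0.05 there were 2 members, the histone demethylases KDM1A and KDM5B, against 8.00% of all genes. Both had lower values after knockdown, as 4.74% of all genes did at this threshold, and no member had higher ones, as 3.26% did. Which members passed 0.05 depended on the normalization. With quantile normalization the 2 members were PHC2 and CBX7, both higher, at 0.28 (limma, unadjusted p = 0.0207 and 0.0429). Cyclic loess normalization gave the same 2 members, also higher. With Benjamini-Hochberg adjustment over all 26219 probes, no member was under 0.05, against 0.123% of all genes, and the lowest adjusted p among the members was 0.605. Values below are log2 intensities of the brightest probe of each gene, and the log2FC is the mean of the knockdown arrays minus the mean of the control arrays.

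The members were spread around 0 much as all genes were. The log2FC was below 0 for 24 members, or 58.5%, against 56.2% of all genes. The median log2FC was -0.025 for the members and -0.021 for all genes, and the median size of the log2FC regardless of sign was 0.090 and 0.099. A log2FC of at least 0.2 in either direction was seen for 7 members, or 17.1%, against 20.1% of all genes. A single member, KDM5B, reached 0.3, which is 2.44% of the members against 8.17% of all genes. Both knockdown arrays lay above both control arrays for 4 members, where 15.0% of all genes did so, and below them for 9 members, where 21.2% of all genes did so. The share of members without overlap was thus 31.7%, and that of all genes 36.2%.

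**Figure D1:**
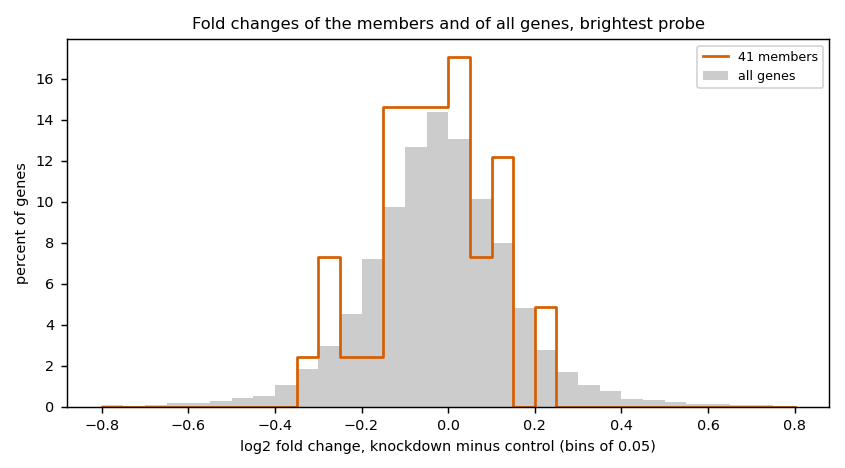
Distribution of the log2FC (knockdown minus control, x axis, bins of 0.05) as percent of genes (y axis) for the 41 members (line) and all 17938 genes (grey bars; 73 genes lie outside the range drawn). The members lie between -0.32 and 0.25, within the bulk of all genes, whose tails reach further on both sides.

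The intervals show which changes these arrays could have left unseen. The SE of the members' log2FC ranged from 0.11 to 0.16, and a member needed a log2FC between 0.41 and 0.59 in size, 0.46 in the median, to be called. The 95% confidence intervals of 35 members lay within 0.5 of 0 on the log2 scale and those of all 41 within 1. The outermost limits were those of KDM5B, at 64.1% of the control level, and of CBX7, at 146%. Differences of 2-fold in the measured signal were thus outside the intervals of the 39 members well above background on every array. For TET3 and KDM6A, which lay near the background, the interval sets no such limit. The signal still holds background, which understates the fold changes of other dim members. Examples are PCGF2, KDM5A and KDM6B, at mean log2 intensities of 5.71, 5.85 and 6.42. For such members the limit holds for the signal and not for the RNA. The 6 members whose intervals passed 0.5 on one side were BMI1, CBX2, KDM1A, KDM5B, CBX7 and PHC2.

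**Figure D2:**
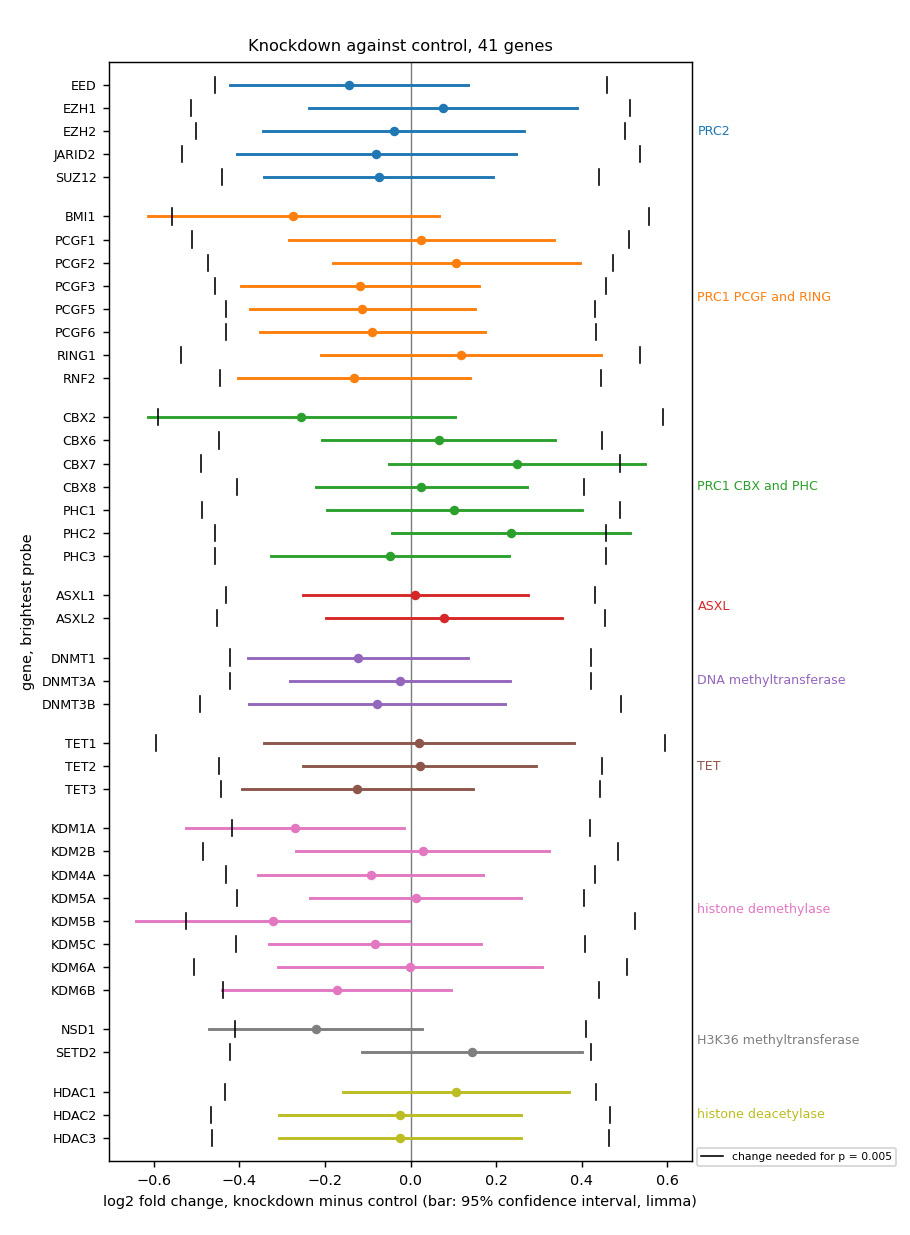
The log2FC of the 41 members (points, x axis) with 95% confidence intervals from limma (coloured bars), grouped by role; the black ticks mark the change each gene needed for an unadjusted p of 0.005. No point reaches its tick, and the intervals of KDM1A and KDM5B are the 2 that leave out 0. TET3 and KDM6A are drawn at their measured values, which lie near the background.

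The PRC2 genes showed small differences. EZH2, the main H3K27 methyltransferase, read 11.96 and 11.84 after knockdown and 11.78 and 12.09 in control cells, with the control arrays lying outside the knockdown arrays on both sides. Its log2FC was -0.04 ± 0.13 (SE, limma, adjusted p = 0.973), with an interval from -0.34 to 0.27. EED, which reads H3K27 methylation and activates the enzyme, read 12.63 and 12.63 with siRNA-A and siRNA-B and 12.65 and 12.90 with the control siRNAs. The knockdown arrays were lower without overlap, but by little against control siRNA-1, and the log2FC was -0.14 ± 0.12 (SE, limma, adjusted p = 0.827). The scaffold subunit SUZ12, spotted 10 times on each array, had a log2FC of -0.07. The alternative methyltransferase EZH1 was at 0.08. JARID2, which helps to bring PRC2 to chromatin, had a log2FC of -0.08 that combined 11.19 with siRNA-A and 11.58 with siRNA-B, 1 value on each side of the control arrays at 11.48 and 11.46. Of the 5 PRC2 genes 4 were below 0, with a median log2FC of -0.07, and EED was the only one without overlap between groups, where 56.2% of all genes were below 0 and 21.2% lower without overlap.

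Of the PRC1 genes for PCGF and RING subunits, BMI1 had the largest difference. BMI1 (PCGF4), a PRC1 subunit needed for the self-renewal of blood stem cells, read 10.82 with siRNA-A, 11.23 with siRNA-B and 11.25 and 11.36 with the control siRNAs. The knockdown arrays were lower without overlap, but siRNA-B lay close to control siRNA-1, and the log2FC was -0.27 ± 0.15 (SE, limma, unadjusted p = 0.101, adjusted p = 0.717). The brightest probe lies at chr10:22619577-22619636 (hg19, plus strand). A second BMI1 probe, whose 60 bases span 409 bases of the genome (chr10:22617587-22617995) and so cross an intron, read 9.62 and 9.81 against 10.06 and 10.03. It was lower with both siRNAs, with a log2FC of -0.33 ± 0.12 (SE, limma, unadjusted p = 0.0212, adjusted p = 0.529).

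RNF2 (RING1B), a catalytic subunit that ubiquitinates histone H2A, read 9.06 with siRNA-A, 9.26 with siRNA-B, 9.25 with control siRNA-1 and 9.33 with control siRNA-2. The arrays overlapped, and the log2FC was -0.13 ± 0.12 (SE, limma, adjusted p = 0.835). Its second probe, with a log2FC of -0.22, was lower without overlap. RING1, the other catalytic subunit, had a log2FC of 0.12, all of it from siRNA-B at 0.30 above the control mean, whereas siRNA-A was at -0.07. The other PCGF genes, whose products define the PRC1 variants, had log2FCs of 0.03 for PCGF1, 0.11 for PCGF2, -0.12 for PCGF3, -0.11 for PCGF5 and -0.09 for PCGF6. PCGF5 was lower without overlap on its brightest probe. The second PCGF3 probe read 7.61 and 7.43 against 7.80 and 7.85, lower without overlap, with a log2FC of -0.30 ± 0.12 (SE, limma, unadjusted p = 0.0312, adjusted p = 0.578). In all, 5 of the 8 PCGF and RING genes were below 0, with a median log2FC of -0.10, and 2 (BMI1 and PCGF5) were lower without overlap. Over all genes 56.2% were below 0 and 21.2% lower without overlap.

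Of the CBX and PHC genes 5 of 7 were above 0 on the brightest probe, with a median log2FC of 0.07, and 4 of 7 as the mean over probes, with a median of 0.02. Both PHC2 and CBX7 were higher without overlap on the brightest probe, where 15.0% of all genes were. None had an unadjusted p under 0.05. PHC2, a polyhomeotic subunit through which PRC1 complexes cluster, read 11.93 and 12.16 after knockdown against 11.77 and 11.85, higher without overlap, with a log2FC of 0.23 ± 0.12 (SE, limma, unadjusted p = 0.0895, adjusted p = 0.704). Its second probe was at -0.08 and overlapped. CBX7, a chromodomain subunit that binds methylated H3K27, read 9.22 with siRNA-A and 9.54 with siRNA-B against 9.13 on both control arrays. The log2FC was 0.25 ± 0.13 (SE, limma, unadjusted p = 0.0914, adjusted p = 0.708). The second CBX7 probe gave the opposite direction, also without overlap: it read 8.63 and 8.88 against 8.97 on both control arrays, a log2FC of -0.21. CBX2, another chromodomain subunit, read 10.84 and 10.77 after knockdown and 10.82 and 11.30 in control cells. Its log2FC of -0.26 ± 0.16 (SE, limma, adjusted p = 0.752) came from the array of control siRNA-2, and its second probe was at 0.24 with overlapping arrays. The 2 CBX2 probes list different RefSeq transcripts. The further chromodomain subunits CBX6 and CBX8 were at 0.07 and 0.02, and the polyhomeotic subunits PHC1 and PHC3 at 0.10 and -0.05, all with overlapping arrays.

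The first 30 of the 60 bases of these probes are shown because each pair names 1 gene but gave values of opposite sign. They are written as the scanner tables hold them, with hg19 positions of the whole probe. No base is marked, as nothing in the data singles one out. In order they are the brightest CBX7 probe (chr22:39527000-39527059, minus strand), the other CBX7 probe (chr22:39529719-39529778, minus strand), the brightest CBX2 probe (chr17:77761302-77761361, plus strand) and the other CBX2 probe (chr17:77755889-77755948, plus strand).
CBX7 brightest probe: tctcagcacaagagcgcttcctttgcacag
CBX7 other probe: aaggggagaagatcccactactctcccacc
CBX2 brightest probe: gcaccagatgctcagacttggttgtcttat
CBX2 other probe: ctcttccctcccagggggtccttgggggac

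Both ASXL genes overlapped between groups. ASXL1, a partner of the BAP1 deubiquitinase that removes ubiquitin from histone H2A, had a log2FC of 0.01, and ASXL2 had 0.08.

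The 3 DNA methyltransferases were all slightly below 0. DNMT1, which copies methylation to the new strand after replication, read 12.50 with siRNA-A, 12.40 with siRNA-B, 12.53 with control siRNA-1 and 12.62 with control siRNA-2. The knockdown arrays were lower without overlap, and the log2FC was -0.12 ± 0.11 (SE, limma, adjusted p = 0.841). The de novo enzymes DNMT3A and DNMT3B had log2FCs of -0.03 and -0.08 and overlapped. The 3 DNMT3A probes were all at or below 0, between -0.09 and -0.002. The TET genes, whose products oxidise methylated cytosine, were at 0.02 for TET1 and TET2. TET3 was well above background on both control arrays but on neither knockdown array, so its knockdown level has only a bound: set against the lowest signal that was well above background, the control level was at least 1.02-fold higher, and the measured means were 5.39 and 5.27 (limma, adjusted p = 0.852). The TET3 value depended strongly on the background. With the background-subtracted signal its log2FC was -1.22 scaled and -1.25 unscaled (limma, unadjusted p = 0.006015 and 0.006045). Neither was called, and both rest on knockdown signals near the background. All 4 TET2 probes were above 0, between 0.02 and 0.13, and on the 3 dimmer ones both knockdown arrays lay above both control arrays, as for 15.2% of all probes. None of the 4 TET2 probes reached an unadjusted p under 0.05.

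With the brightest probe and unnormalized median signals, histone demethylases held the 2 lowest p-values among the members. With quantile normalization PHC2 and CBX7 held them instead. KDM1A and KDM5B then had unadjusted p = 0.0610 and 0.0575 in limma. With cyclic loess normalization these were 0.0576 and 0.0533, again above those of PHC2 and CBX7. KDM1A (LSD1), which removes methyl groups from H3K4 and is a drug target in AML, read 9.08 with siRNA-A and 8.96 with siRNA-B against 9.27 and 9.31 on the control arrays. Both siRNAs lay below both control arrays, at -0.21 and -0.33 against the control mean. The log2FC was -0.27 ± 0.11 (SE, limma, unadjusted p = 0.0401, adjusted p = 0.605), with an interval from -0.52 to -0.02. KDM5B (JARID1B), an H3K4 demethylase, read 11.09 with siRNA-A and 11.46 with siRNA-B against 11.62 and 11.58, lower without overlap. Its log2FC was -0.32 ± 0.14 (SE, limma, unadjusted p = 0.0484, adjusted p = 0.617). The siRNA-A array accounted for most of this, at -0.51 against the control mean, with siRNA-B at -0.14. On the second KDM5B probe siRNA-A was again low, at 8.85, but siRNA-B at 9.46 lay above the control arrays at 9.35 and 9.34, and the log2FC of -0.19 had an unadjusted p of 0.324 in limma.

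KDM6B (JMJD3), an H3K27 demethylase, read 6.27 and 6.41 against 6.58 and 6.44, lower without overlap but with siRNA-B next to control siRNA-2, and had a log2FC of -0.17 ± 0.12 (SE, limma, adjusted p = 0.780). KDM6A (UTX), the other H3K27 demethylase, lay near the background: its brightest probe was well above background on 1 control array and on neither knockdown array, at a mean of 5.08 in both groups, so no fold is given. KDM5C, an H3K4 demethylase, was at -0.08 without overlap, but its second probe was at 0.12, higher without overlap. KDM2B, a demethylase that brings PRC1 to unmethylated CpG islands, was at 0.03, and its 3 probes were all above 0, up to 0.19. KDM4A, which acts on H3K9 and H3K36, and KDM5A, which acts on H3K4, were at -0.09 and 0.01 and overlapped. Leaving out KDM6A, 5 of 7 demethylases were below 0, with a median log2FC of -0.09, and 4 (KDM1A, KDM5B, KDM5C and KDM6B) were lower without overlap, where 21.2% of all genes were. With KDM6A and as the mean over probes, 5 of 8 were below 0, with a median of -0.05, and KDM5C was at 0.02.

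The H3K36 methyltransferases differed in direction. NSD1, which dimethylates H3K36, read 9.73 and 9.70 after knockdown against 9.98 and 9.90, lower without overlap and closely alike with both siRNAs, with a log2FC of -0.22 ± 0.11 (SE, limma, unadjusted p = 0.0748, adjusted p = 0.683). Its second, dim probe was at -0.07. SETD2, which trimethylates H3K36, read 9.67 and 9.81 against 9.62 and 9.57, higher without overlap, with a log2FC of 0.14 ± 0.11 (SE, limma, adjusted p = 0.812).

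The class I histone deacetylases were bright and close to the control level. HDAC1 was at 0.11, higher without overlap, with the siRNA-A array at 13.605 just above control siRNA-1 at 13.604. HDAC2 and HDAC3 were at -0.03 and -0.02 and overlapped. The probes of HDAC1, HDAC2, PCGF6 and SUZ12 were each spotted 10 times per array, and the SD between identical spots on 1 array was 0.130 to 0.278. The value of an array is the mean of these spots.

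**Figure D3:**
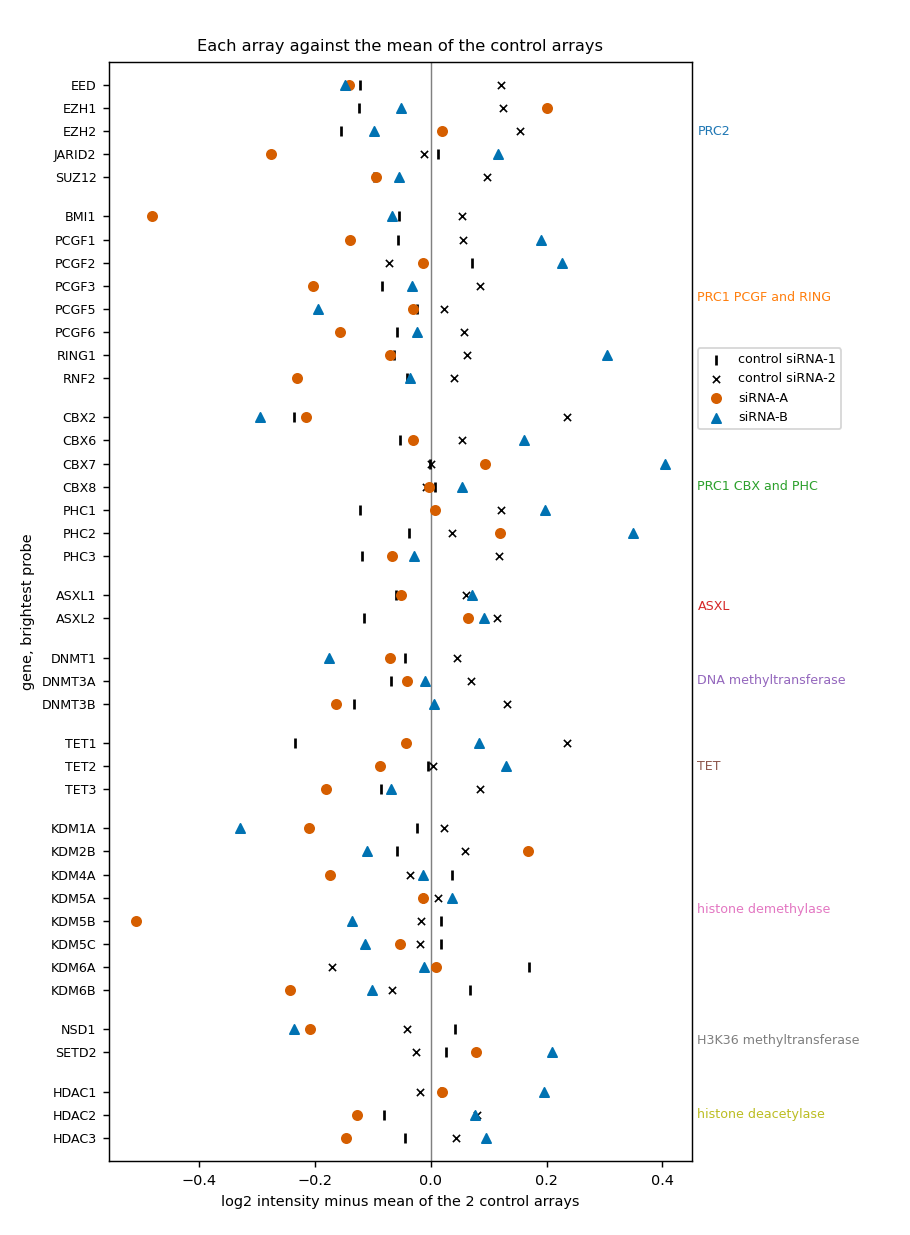
Log2 intensity of each member on each array minus the mean of the 2 control arrays (x axis), by role; circles and triangles are the siRNA-A and siRNA-B arrays, bars and crosses the control arrays. The siRNA-A points of BMI1 and KDM5B lie farthest to the left, and the siRNA-B points of CBX7 and PHC2 farthest to the right.

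The siRNAs were compared side by side. Against the mean of the control arrays, which both siRNAs share, 18 members (43.9%) were below 0 with both, 6 (14.6%) above 0 with both, and 17 (41.5%) below with one and above with the other. Over all genes these shares were 35.2%, 26.3% and 38.3%. With siRNA-A 31 members were below 0 and with siRNA-B 22. The median was -0.07 for siRNA-A and -0.01 for siRNA-B, while over all genes the medians were -0.05 and 0.01. The siRNA-A array was lower than the siRNA-B array for 30 members, or 73.2%, against 63.9% of all genes. The gap between the siRNAs was 0.16 in the median and at most 0.41, and the gap between the control arrays 0.12 in the median and at most 0.47. For 24 members, or 58.5%, the log2FC was smaller than the gap between the control arrays, as for 53.3% of all genes.

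Several probes were analysed for 17 of the 41 members and a single probe for the other 24. All probes of a gene had the same sign in 9 of the 17 and both signs in 8, namely CBX2, CBX7, PHC2, PHC1, KDM5C, HDAC2, TET1 and PCGF5. The log2FC of the probes of 1 gene spanned 0.15 in the median. BMI1, RNF2, PCGF3, KDM5B, NSD1 and DNMT3A had all probes below 0, and TET2, KDM2B and ASXL2 all above. Over the 64 analysed member probes, 0 were called and 4 had an unadjusted p under 0.05, or 6.25% against 8.06% of all probes. These were the probes of KDM1A and KDM5B and the second probes of BMI1 and PCGF3, all lower.

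**Figure D4:**
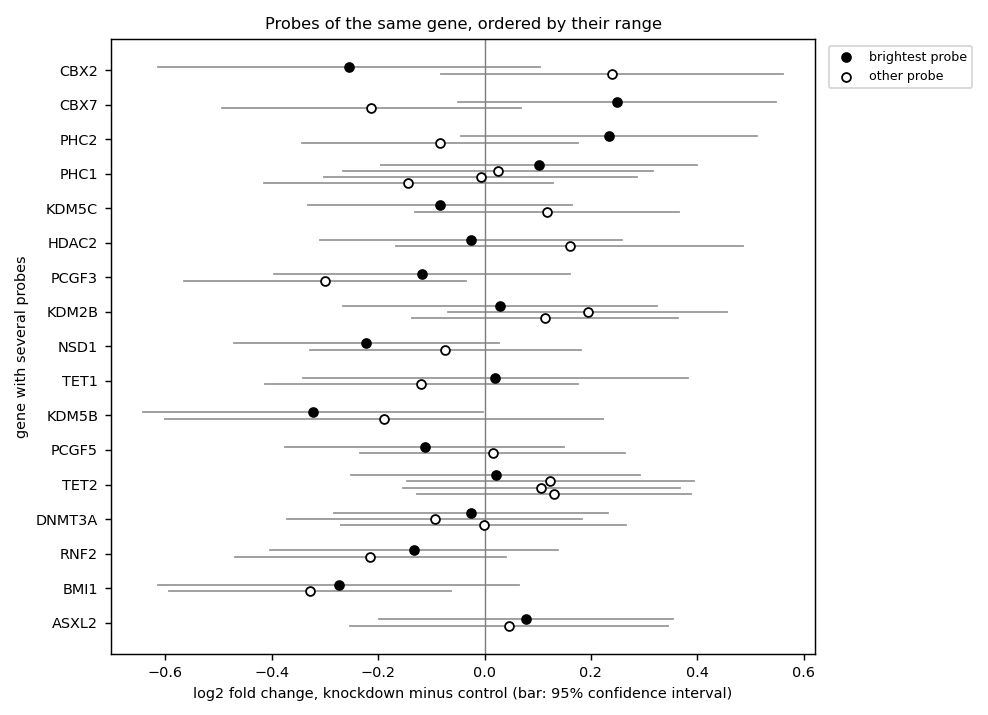
The log2FC (x axis) of every analysed probe of the 17 members with several probes, the brightest filled and the others open, with 95% confidence intervals from limma. The genes are ordered by the range between their probes: CBX2 and CBX7 at the top have probes on both sides of 0, and BMI1 near the bottom has both below it.

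Other genes of the same pathways were taken from a list of 121, of which 118 were measured. None was called, and 6 had an unadjusted p under 0.05, which is 5.08% against 8.00% of all genes. They are named after their values were seen. Higher were SIRT6, a histone deacetylase of the sirtuin family, at 0.28, GFI1B, a repressor that recruits KDM1A, at 0.28, and MBD5, which binds the BAP1 deubiquitinase, at 0.36. Lower were JMJD1C, a jumonji family protein, at -0.39, GPS2, a subunit of the NCoR corepressor, at -0.27, and TDG, the glycosylase that removes oxidised methylcytosine, at -0.27. The limma adjusted p of these 6 genes ranged from 0.479 for JMJD1C to 0.608 for GPS2. The median log2FC over the 118 genes was -0.02. The 8 further PRC2 subunits and cofactors were all below 0, between -0.15 and -0.04, and 2 of them, MTF2 and PHF1, were lower without overlap. Among all genes 56.2% were below 0 and 21.2% lower without overlap, and the direction of this list was not tested. Among 14 further deacetylases and sirtuins 6 were higher without overlap and 1 lower, where 15.0% and 21.2% of all genes were. Of 17 further PRC1 genes 1 was higher without overlap and 1 lower, and of 15 further demethylases 1 and 3. For 18 methyltransferases these numbers were 2 and 1, and for 22 corepressor genes 3 and 3. For 16 DNA methylation genes they were 1 and 2, and for 8 genes of the BAP1 deubiquitinase 2 and 1. The median log2FC of these other lists lay between -0.07 and 0.03.

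The promoters of the members are the DNA on which CpG methylation itself would be read, and the RefSeq table (GRCh38.p14) held 39 of the 41, without CBX2 and CBX8. In the 250 bases before the start, the members held between 1 and 45 CG pairs, with a median of 21, against 19 over the 10925 genes of the arrays with a promoter and 11 over all 27305 promoters. At least 20 CG pairs were found in 61.5% of the member promoters, 48.9% of those of the array genes and 32.1% of all promoters. The letters TATAAA, on either strand, occurred in 3 member promoters, or 7.69%, against 7.45% of the array genes. For each gene the first listed promoter was taken, and whether THP1 cells use that start was not tested. The arrays did not measure methylation. The promoters with the most and the fewest CG pairs are shown with each CG in capitals, 5' to 3' on the gene's strand: CBX6 (chr22:38872217-38872466, minus strand, 45 pairs) and PCGF2 (chr17:38746629-38746878, minus strand, 1 pair).
CBX6 promoter: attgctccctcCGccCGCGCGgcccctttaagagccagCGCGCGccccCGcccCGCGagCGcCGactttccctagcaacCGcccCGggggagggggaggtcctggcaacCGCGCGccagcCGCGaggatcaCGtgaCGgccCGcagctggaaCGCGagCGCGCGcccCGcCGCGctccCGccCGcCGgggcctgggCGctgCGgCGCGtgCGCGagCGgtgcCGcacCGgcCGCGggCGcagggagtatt
PCGF2 promoter: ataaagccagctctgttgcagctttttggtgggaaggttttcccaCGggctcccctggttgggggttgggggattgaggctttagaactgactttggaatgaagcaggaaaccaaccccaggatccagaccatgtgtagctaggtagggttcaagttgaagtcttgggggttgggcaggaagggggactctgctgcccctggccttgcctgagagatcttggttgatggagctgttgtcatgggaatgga

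The log2FC of the 12 members given array by array moved with the arrays, the probe and the signal used. Without siRNA-A, BMI1 moved to -0.07 and KDM5B to -0.14, and without siRNA-B they moved to -0.48 and -0.51. As the mean over all probes of the gene, CBX7 was at 0.02, CBX2 at -0.007 and PHC2 at 0.07. EED was at -0.02 without control siRNA-2 and at -0.27 without control siRNA-1, RNF2 at -0.04 without siRNA-A and at -0.23 without siRNA-B, and PHC2 at 0.35 without siRNA-A and at 0.12 without siRNA-B. CBX7 was also at 0.40 without siRNA-A and at 0.09 without siRNA-B, and CBX2 at -0.02 without control siRNA-2 and at -0.49 without control siRNA-1. DNMT1 was at -0.07, SETD2 at 0.08 and KDM6B at -0.24 without siRNA-B, and KDM6B at -0.10 without siRNA-A. With the unscaled background-subtracted signal KDM6B was at -0.31 and SETD2 at 0.05. KDM1A stayed between -0.33 and -0.21 and NSD1 between -0.26 and -0.13 over all 13 settings. None of these values was called.

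**Figure D5:**
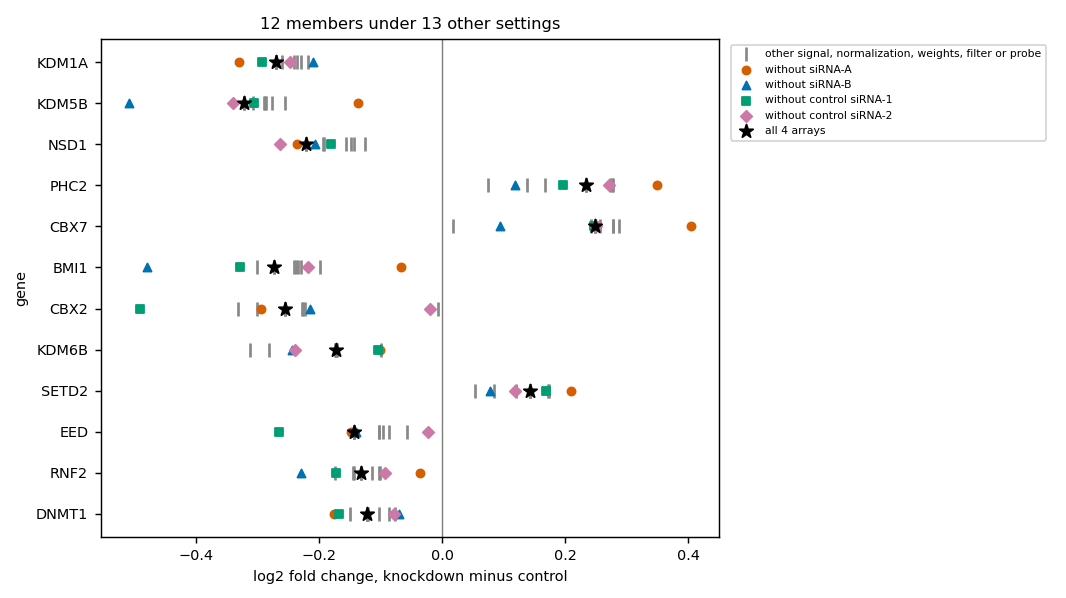
The log2FC (x axis) of the 12 members described array by array, from all 4 arrays (stars), without each array in turn (coloured symbols) and with another signal, normalization, weighting, filter or probe rule (grey bars). Every value of a gene is on the same side of 0, and BMI1 and KDM5B spread most when an siRNA array is left out, while the values of CBX7 and CBX2 nearest 0 are those of the mean over probes.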

How the data were processed

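Total RNA of THP1 cells, pooled from 5 experiments per siRNA, was hybridised to single-colour Agilent 4x44K v2 arrays with probes placed on hg19. The deposited intensity values are median pixel signals per spot, read by the authors with Agilent Feature Extraction 10.5.1.1 per the submitters' processing notes, with no background correction and no normalization. The authors also deposited a quality score per spot, a weight of 0, 0.5 or 1, whose basis is not given in the sources used here. A median signal still holds background, so fold changes of dim probes are understated.

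Of 103 member spots, 100 (64 probes) had a weight above 0 on all arrays; 1 probe each of KDM6A, DNMT3B and TET3 was left out. Identical spots were averaged on the log2 scale, and limma 3.58.1 (R 4.3.3) with the deposited weights was fitted to 26219 probes, as the study did on unnormalized log2 intensities, two-sided and with Benjamini-Hochberg adjustment over all probes. A call is an unadjusted p under 0.005. The study's further criterion, a test over identical spots of a probe, was not applied, since those spots were averaged. A gene is represented by its brightest probe over all arrays. With 2 arrays per group an exact two-sided permutation test cannot go below p = 0.333. The limma p-values, SEs and intervals rest on the spread between arrays of different siRNAs, moderated by a prior variance estimated over all probes. The fit had 8.61 degrees of freedom, so a gene's own spread is only part of its SE. KDM5A, with SDs of 0.035 (knockdown) and 0.018 (control), had an SE of 0.11. The scripts were tested on simulated data.

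The members and lists were chosen with earlier results of these data known. Values on every array are given for members with an unadjusted p under 0.05 and then by smallest p up to 12; all members are accounted for. Other pathway genes were to be named where called. One gene was taken out of that list and is not reported here, so counts are over the genes that remain. Alternatives were the background-subtracted signal, with and without scaling to the 75th percentile, quantile and cyclic loess normalization, normexp with an offset of 50, all spots weighted alike, probes well above background only, a prior variance that follows intensity, the mean over the probes of a gene, and each array left out.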

Additional observations from a re-analysis of the deposited data

How the results depend on the processing

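No member was called under any of the 13 alternatives, nor at an adjusted p under 0.05. At an unadjusted p under 0.05 there were 2 members in place of 0 at 0.005, and between 0 (without control siRNA-2) and 3 over the alternatives, where the share of all genes ranged from 3.08% (without control siRNA-2) to 10.0% (without siRNA-B); called were 0.284% to 1.70% of all genes. The lowest adjusted p was 0.423, with normexp. The number of members without overlap was 25 to 29 when 1 array was left out, since 3 arrays overlap less often; over all genes that share was then 61.6% to 71.5%. The members' median log2FC ranged from -0.078 to 0.025, each within 0.056, the SD between arrays, of the value from all arrays, and for all genes from -0.056 to 0.012. Of the 41 members, 18 kept their sign under every alternative, all 12 described by array among them, and 23 did not. The filter on dim probes dropped KDM6A. Leaving out an array leaves 1 group with 1 array, assumed to vary like the other. No paired analysis was possible because the knockdown and control siRNAs share no replicate number. The number of arrays limits the precision, and TET3 and KDM6A are limited by background.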
